A study of Mus musculus with 19 samples.

Results

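The mitosis and spindle genes described here are 34 genes chosen by symbol, from the kinesin motor Kif11 to the cyclins and the proliferation mark Mki67. All probe sets whose annotation gave 1 of these symbols were taken, which gave 71 probe sets for 33 genes out of 45037 probe sets and 18193 genes in all. The gene for cyclin B1, Ccnb1, had no probe set in the annotation table used and was not analysed here. Expression had been measured, with 1 array each, in 19 Ptch+/-p53-/- mouse medulloblastomas. They grew subcutaneously in the right flank of nude mice after injection of cells taken straight from dissociated tumours, with treatment begun about 10 days later. This genotype, shared by all groups, lacks p53 and has 1 disrupted copy of Ptch, the Hedgehog receptor. Whether the tumour cells kept the other copy of Ptch was not tested. The 8 tumours at 160 mg/kg and the 8 tumours at 40 mg/kg came from mice given NVP-LDE225, a blocker of the Hedgehog signal transducer Smoothened, and the labels call all 16 resistant. The 3 vehicle tumours are called sensitive. Treatment and resistance thus form a single contrast and cannot be told apart. A further label, the source name, reads resistant for tumours 6 and 7 at 160 mg/kg and treated for the other 14. The labels do not state that each tumour came from a separate animal, so the p-values describe only how these samples spread.

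Cells enter mitosis when cyclins switch on the kinase Cdk1. Motor proteins and Aurora and Polo kinases then build the spindle, the kinetochore ties chromosomes to it, and a checkpoint holds back the anaphase-promoting complex until every chromosome is attached. Most of these genes are transcribed late in the cell cycle, under the control of the MuvB complexes and Foxm1, and in the cerebellum they mark dividing granule neuron precursors, the cells from which Hedgehog-driven medulloblastoma arises.

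Promoters of 28 of the 34 genes were found in the RefSeq promoter table of mouse build GRCm38.p6, as 30 windows from 250 bases before to 50 bases after a start site. Entries for Ccna2, Foxm1, Tpx2, Aurkb, Incenp and Kif20a were not found. The letters TTTGAA, the core of the cell cycle genes homology region, were present on either strand in 23 of the 30 windows (76.7%), against 17.9% of all 32851 windows. The letters CCAAT, the box read by the factor NF-Y, were also present in 23 windows (76.7%), against 37.4% of all windows. Both motifs lay in 20 windows (66.7%), against 6.95% of all windows, and in the 4 windows shown no TTTGAA match overlaps a CCAAT match. A match is a description of these letters and does not show that a factor was bound. The windows of Kif11 (chr19:37376132-37376431, + strand), Bub1b (chr2:118597961-118598260, + strand), Cenpf (chr1:189688037-189688336, - strand) and Ube2c (chr2:164769679-164769978, + strand) are shown because the results below turn on these genes, a choice made after their values were seen. Each is written 5′ to 3′ on the gene's own strand. Capitals mark TTTGAA and CCAAT, or their reverse complements TTCAAA and ATTGG.
Kif11: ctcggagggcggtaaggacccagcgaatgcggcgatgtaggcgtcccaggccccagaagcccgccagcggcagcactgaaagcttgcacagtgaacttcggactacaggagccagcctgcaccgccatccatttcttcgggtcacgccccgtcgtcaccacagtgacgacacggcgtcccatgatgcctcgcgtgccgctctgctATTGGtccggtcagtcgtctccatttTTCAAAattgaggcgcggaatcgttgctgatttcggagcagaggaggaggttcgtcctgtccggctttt
Bub1b: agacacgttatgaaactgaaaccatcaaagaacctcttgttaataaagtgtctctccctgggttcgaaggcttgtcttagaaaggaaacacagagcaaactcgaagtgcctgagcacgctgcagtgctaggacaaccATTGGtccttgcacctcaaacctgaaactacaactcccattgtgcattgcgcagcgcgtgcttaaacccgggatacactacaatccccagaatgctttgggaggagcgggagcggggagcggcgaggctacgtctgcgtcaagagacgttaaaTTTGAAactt
Cenpf: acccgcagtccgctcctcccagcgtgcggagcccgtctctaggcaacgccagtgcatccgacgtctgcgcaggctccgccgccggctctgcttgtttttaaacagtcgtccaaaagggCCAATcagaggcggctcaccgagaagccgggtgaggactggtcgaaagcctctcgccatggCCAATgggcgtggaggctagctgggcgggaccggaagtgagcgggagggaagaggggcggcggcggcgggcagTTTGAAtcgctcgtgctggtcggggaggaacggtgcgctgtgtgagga
Ube2c: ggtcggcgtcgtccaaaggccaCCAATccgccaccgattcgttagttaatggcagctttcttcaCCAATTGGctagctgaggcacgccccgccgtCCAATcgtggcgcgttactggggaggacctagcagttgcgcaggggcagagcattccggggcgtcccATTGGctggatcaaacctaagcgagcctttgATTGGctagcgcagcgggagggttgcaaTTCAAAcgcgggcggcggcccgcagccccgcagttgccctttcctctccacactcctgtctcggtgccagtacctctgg
In Kif11 the TTTGAA match began 19 bases before the start site, at position -19, and the CCAAT match at position -45. Ube2c held 6 CCAAT matches, of which those at -186 and -183 overlap in the letters CCAATTGG.

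The tissue check gave a tumour that stood apart. Zic1, a transcription factor of granule neuron precursors, had signals of 3632 to 6115 at 160 mg/kg, 4346 to 5445 at 40 mg/kg and 3233 to 3647 in vehicle tumours. Atoh1, the transcription factor that defines dividing granule neuron precursors, had a signal of 22.5 in 160 mg/kg tumour 2, against at least 352.6 in the other treated tumours and at least 1196 in vehicle tumours. Barhl1, another gene of this lineage, was at 32.7 in the same tumour, and this array had the second lowest mean correlation with the other arrays (0.9303), after vehicle tumour 3 (0.9274). The median log2 change of each comparison below is therefore also given without these 2 arrays. Most counts of genes were not redone without them. Of the marker lists for other cell types, 6 of 12 measured postmitotic neuron genes rose in resistant tumours, against 2.84% of all genes tested. Their summed signals were 7065 to 14698 at 160 mg/kg, 6421 to 14186 at 40 mg/kg and 4484 to 5497 in vehicle tumours. The 10 skeletal muscle genes summed to 288 to 6688 at 160 mg/kg, 275 to 18111 at 40 mg/kg and 1519 to 4003 in vehicle tumours, and the 10 fibroblast genes to 1982 to 8367, 3672 to 7210 and 3809 to 7685 in the same order. The 10 macrophage genes summed to 718 to 6429, 794 to 3007 and 1098 to 1675, and the 8 endothelial genes to 387 to 534, 392 to 624 and 462 to 711. The 3 skin genes summed to 299 to 3410, 2259 to 5330 and 5193 to 5929, the 2 adipocyte genes to 28 to 1854, 31 to 412 and 76 to 1119, and the 2 erythroid genes to 21 to 78, 20 to 1393 and 80 to 140. Of these genes, the fibroblast gene Loxl1 and the endothelial gene Flt1 fell in resistant tumours. Of 15 granule neuron precursor genes, 5 rose, 5 had negative log2 changes (lowest -0.87) and 0 were called lower. Of all genes tested, 2.84% rose and 2.45% fell. Atoh1 signals ran from 22.5 to 1954 at 160 mg/kg, 352.6 to 1404 at 40 mg/kg and 1196 to 1422 in vehicle tumours. Those of Barhl1 ran from 32.7 to 909.8, 222.3 to 663.8 and 608.4 to 624.3 in the same order. No lymphocyte marker passed the filter on low signal, and no measured marker of these lists was at 0 on any array. In such bulk tissue, fewer cells of a type and less RNA per cell cannot be told apart, and the part of other cell types in the results below was not tested.

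The first comparison set the resistant tumours, as the mean of both doses, against vehicle tumours. Of 33 genes, 1 fell, Kif11, and 0 rose, against 2.45% of all 13454 genes tested that fell, 2.84% that rose and 5.29% called in either direction (limma with Benjamini-Hochberg adjustment over 31143 probe sets, adjusted p under 0.05). At an unadjusted p under 0.05, 5 of 33 genes were lower and 0 higher. Of all 13454 genes, 1762 were lower and 1375 higher at that p (23.3% in either direction). The log2 changes ran from -0.53 to 0.28 with a median of -0.16 (-0.09 without vehicle tumour 2), against a median of -0.06 for all genes, and 27 of 33 (81.8%) were negative, against 57.5% of all genes. For 32 of the 33 genes the 95% interval lay within a 2-fold change either way, against 70.6% of all genes. The exception was Cenpf, with an interval of -1.11 to 0.09. By the brightest probe set of each gene the groups always overlapped: in 0 of 33 were all 16 treated tumours below all vehicle tumours (2.53% of all genes), and in 0 were all 16 above (1.99%). In 6 of 33 (18.2%), against 16.1% of all genes, at least 12 treated tumours lay below all vehicle tumours.

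**Figure D1:**
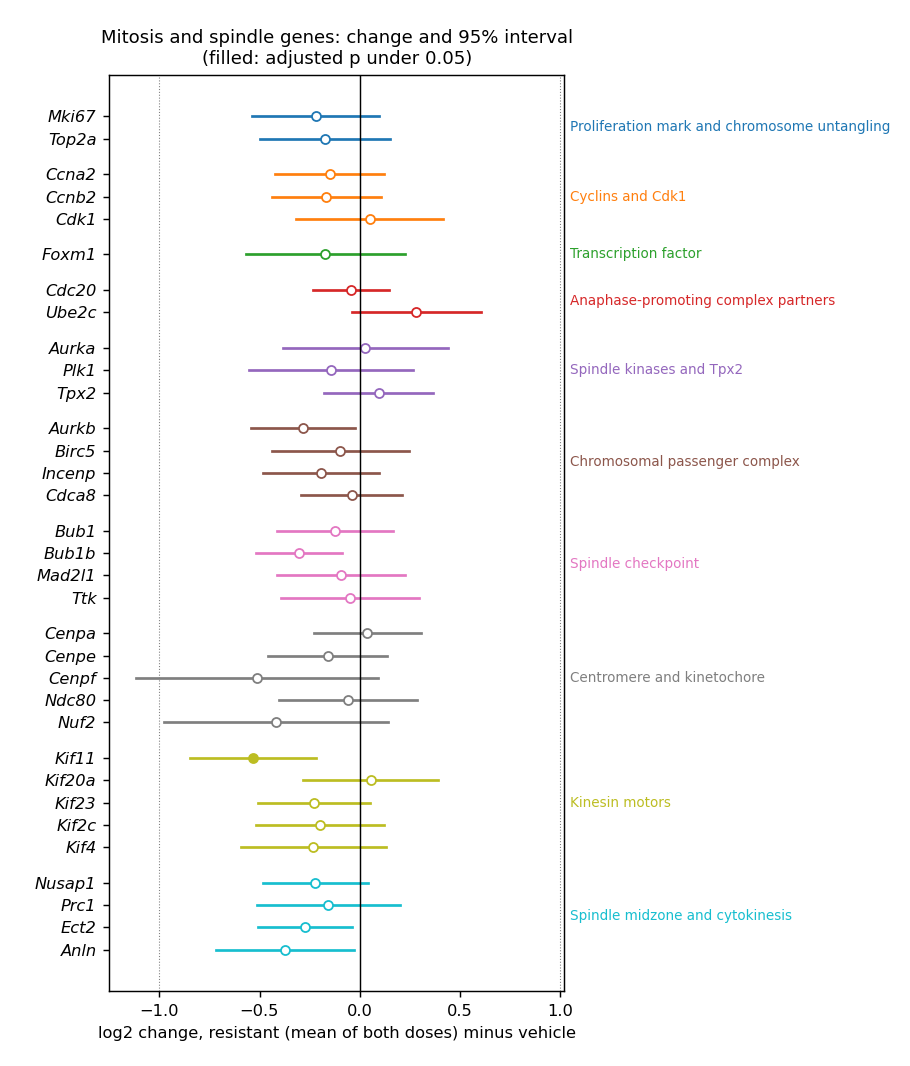
Log2 change (horizontal axis, resistant tumours as the mean of both doses minus vehicle) of 33 mitosis and spindle genes, grouped by role, with 95% intervals from limma. Filled points passed an adjusted p under 0.05, which only Kif11 did, and 27 of 33 points lie left of 0 while dotted lines mark a 2-fold change.

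Kinesin motors push, pull and dismantle spindle microtubules, and the only called gene was among them. Kif11 is the kinesin that slides the spindle poles apart. Its brightest probe set had signals of 369 (lowest), 509 (median) and 657 (highest) at 160 mg/kg, 436, 519 and 605 at 40 mg/kg, and 640, 790 and 799 in the 3 vehicle tumours. In 15 of 16 treated tumours the signal was below all vehicle tumours, and the exception was at 160 mg/kg. The log2 change was -0.53 (SE 0.15, 95% interval -0.85 to -0.22, adjusted p = 0.0494 in limma). The call did not extend to its other probe sets, with log2 changes of -0.16 (interval -0.47 to 0.14) for the first and -0.20 (interval -0.63 to 0.23) for the second, both overlapping vehicle. The call also ended when any of the 3 vehicle tumours was left out (adjusted p = 0.0851 without tumour 1, 0.168 without tumour 2 and 0.248 without tumour 3) and in 10 of the 16 fits without a treated tumour (without tumour 1, 2, 3, 4, 5, 7 or 8 at 40 mg/kg or tumour 1, 7 or 8 at 160 mg/kg, adjusted p = 0.0508 to 0.0647). The other motors did not pass the test: Kif20a, which acts in cytokinesis, had a log2 change of 0.06, Kif23 of the centralspindlin complex -0.23, the microtubule-dismantling Kif2c -0.20 and the chromosome-bound Kif4 -0.23.

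The chromosomal passenger complex corrects faulty attachments and steers cell division, with Aurkb as its kinase. None of its 4 genes passed the test by its brightest probe set, but a second probe set of Aurkb did. That dimmer probe set, of the _s_at kind, had signals of 191, 277 and 341 (lowest, median, highest) at 160 mg/kg, 225, 287 and 333 at 40 mg/kg, and 383, 392 and 421 in vehicle tumours, so all 16 treated tumours lay below all vehicle tumours. Its log2 change was -0.50 (SE 0.13, adjusted p = 0.0332) in limma, and it was 1 of 2 called among the 65 kept probe sets of these genes, against 4.47% of all probe sets. Leaving out any of the 3 vehicle tumours ended that call as well (adjusted p = 0.0989 to 0.194 in limma). Of 12 other processing settings, this probe set was called in 8. The brighter Aurkb probe set, of the _x_at kind, had signals of 313, 383 and 478 at 160 mg/kg, 302, 388 and 456 at 40 mg/kg, and 448, 454 and 501 in vehicle tumours. Of the 16 treated tumours, 14 had less signal than any vehicle tumour, with a log2 change of -0.28 (interval -0.54 to -0.02, adjusted p = 0.192 in limma). By the array maker's naming, both kinds mark probe sets whose probes can match more than the intended transcript. The survivin gene Birc5 (-0.10), the scaffold Incenp (-0.19) and the borealin gene Cdca8 (-0.04) did not pass.

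**Figure D2:**
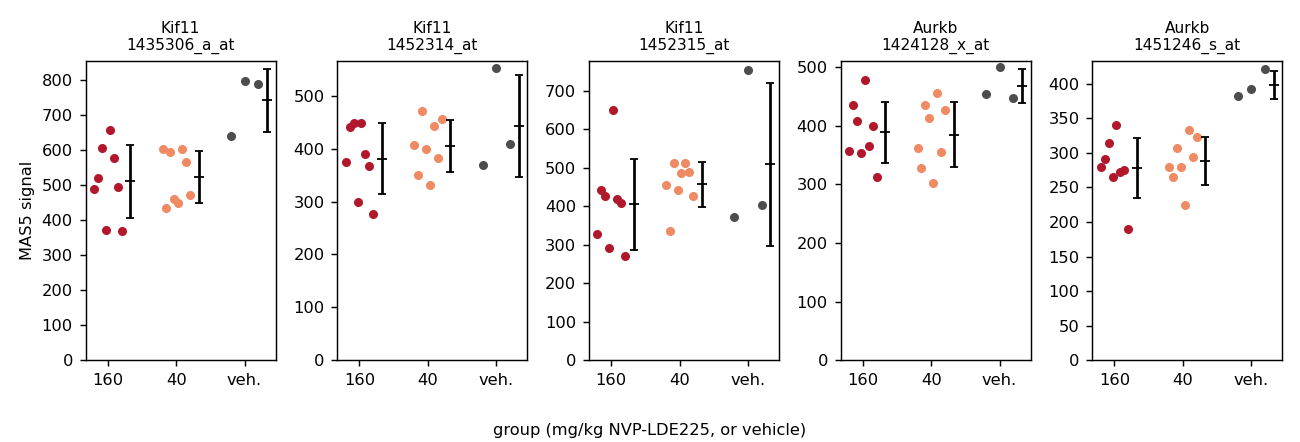
MAS5 signal (vertical axis, linear, from 0) of the 3 kept probe sets of Kif11 and the 2 of Aurkb in each tumour, with bars for the mean and SD beside the points (n = 8 at 160 mg/kg, n = 8 at 40 mg/kg, n = 3 for vehicle). In the last Aurkb panel all 16 treated tumours lie below all vehicle tumours, in the first Kif11 panel 15 of 16 and in the other Aurkb panel 14 of 16, while the other 2 Kif11 panels overlap more widely.

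Checkpoint genes hold cells in metaphase until chromosomes are attached. Bub1b encodes BubR1, which restrains Cdc20. Its signals were 335, 382 and 446 at 160 mg/kg, 327, 393 and 444 at 40 mg/kg, and 432, 472 and 550 in vehicle tumours. In 13 of 16 treated tumours it was below all vehicle tumours, with a log2 change of -0.30 (SE 0.10, interval -0.52 to -0.09), which did not pass at an adjusted p of 0.0947 in limma. The kinase Bub1 (-0.12), Mad2l1 (-0.09) and the kinase Ttk (-0.05) had log2 changes nearer 0, and none passed.

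No centromere or kinetochore gene passed the test. Cenpf encodes a large kinetochore protein made late in the cell cycle, and its signals were 498, 913 and 1497 at 160 mg/kg, 388, 679 and 1195 at 40 mg/kg, and 994, 1076 and 1280 in vehicle tumours. The treated groups overlapped vehicle and spanned a wide range, so that a log2 change of -0.51 (SE 0.29, adjusted p = 0.31 in limma) did not pass. Nuf2, part of the complex that grips microtubules, had a log2 change of -0.42 (interval -0.98 to 0.14) and a 3.99-fold range over the treated tumours, against 3.84-fold for Cenpf. Its partner Ndc80 (-0.06), the kinesin Cenpe (-0.16) and the centromeric histone Cenpa (0.04) did not pass.

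All 4 spindle midzone and cytokinesis genes had negative log2 changes, and none passed. Ect2 activates the small GTPase that contracts the cleavage furrow. Its signals were 851, 1169 and 1442 at 160 mg/kg, 1079, 1280 and 1357 at 40 mg/kg, and 1285, 1575 and 1594 in vehicle tumours. Of the 16 treated tumours, 10 lay below the vehicle range, with a log2 change of -0.27 (SE 0.11, interval -0.51 to -0.04, adjusted p = 0.163 in limma). The scaffold Anln had a log2 change of -0.37 (interval -0.72 to -0.03), and the microtubule-binding Nusap1 (-0.22) and Prc1 (-0.16) did not pass either.

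Ube2c had the highest log2 change of the 33 genes. It encodes the ubiquitin-conjugating enzyme of the anaphase-promoting complex. Its signals were 1151, 1617 and 2368 at 160 mg/kg, 1435, 1716 and 1991 at 40 mg/kg, and 1119, 1361 and 1609 in vehicle tumours. In 9 of 16 treated tumours it was above all vehicle tumours, with a log2 change of 0.28 (SE 0.15, interval -0.04 to 0.60) that did not pass (adjusted p = 0.294 in limma). Cdc20, which activates the same complex, had a log2 change of -0.04 (interval -0.23 to 0.14).

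No gene of mitotic entry passed the test. Mki67 encodes Ki-67, the protein that coats mitotic chromosomes and is used to count dividing cells. Its signals were 1585, 2642 and 3289 at 160 mg/kg, 1961, 2432 and 3055 at 40 mg/kg, and 2588, 2649 and 3457 in vehicle tumours. The groups overlapped, with a log2 change of -0.22 (SE 0.15, interval -0.54 to 0.10, adjusted p = 0.408 in limma). Top2a, which untangles sister chromosomes, had a log2 change of -0.17.

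Ccnb2 encodes a B-type cyclin that activates Cdk1. Its signals were 664, 777 and 1089 at 160 mg/kg, 815, 900 and 1064 at 40 mg/kg, and 906, 980 and 1062 in vehicle tumours, again overlapping. Its log2 change was -0.17 (interval -0.44 to 0.10, adjusted p = 0.468 in limma), beside -0.15 for cyclin A2 (Ccna2) and 0.05 for Cdk1. Foxm1, the transcription factor that drives late cell cycle genes, had signals of 167, 185 and 331 at 160 mg/kg, 112, 185 and 215 at 40 mg/kg, and 173, 231 and 246 in vehicle tumours. Its log2 change of -0.17 had an interval of -0.57 to 0.23 (adjusted p = 0.626 in limma), and the groups overlapped.

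The Polo kinase gene Plk1 had signals of 246, 389 and 542 at 160 mg/kg, 231, 398 and 440 at 40 mg/kg, and 370, 372 and 491 in vehicle tumours. These overlapped, with a log2 change of -0.14 (interval -0.55 to 0.27, adjusted p = 0.703 in limma). Aurka, the kinase of the spindle poles, had a log2 change of 0.03 (interval -0.38 to 0.44), and its activator Tpx2 had 0.09 and did not pass.

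Of the 20 genes with several kept probe sets, all probe sets were lower in resistant tumours for 15, signs differed for 5 (Cdc20, Cenpa, Foxm1, Kif2c and Tpx2), and for 0 were all higher.

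The doses were then taken apart. At 160 mg/kg, 0 of 33 genes were called against vehicle by their brightest probe set (4.89% of all genes were called). At an unadjusted p under 0.05, 5 of 33 were lower, against 1720 of all 13454 genes (22.2% in either direction). The median log2 change was -0.13. That median was -0.03 without vehicle tumour 2 and -0.06 without 160 mg/kg tumour 8. It was -0.19 without vehicle tumour 1 and also without 160 mg/kg tumour 2. Without 160 mg/kg tumour 2 and vehicle tumour 3 together it was -0.20. The dimmer Aurkb probe set fell at this dose (log2 change -0.53, adjusted p = 0.0371 in limma), against 4.05% of all probe sets called. It lost the call without any of the 3 vehicle tumours (adjusted p = 0.0948 to 0.194) or without tumour 1 or 7 at 160 mg/kg (0.0518 and 0.056). Of 12 other processing settings, it was called in 6. At 40 mg/kg, 0 of 33 were called (2.55% of all genes), and the median was -0.17, or -0.08 without vehicle tumour 2. This median was -0.24 without vehicle tumour 1 and -0.19 without 160 mg/kg tumour 2 and vehicle tumour 3 together. At an unadjusted p under 0.05, 4 of 33 were lower at this dose, against 1540 of all 13454 genes (21% in either direction). Both comparisons used the same 3 vehicle tumours. Their intervals lay within a 2-fold change for 32 genes at 160 mg/kg and 31 at 40 mg/kg, against 67.9% and 68.7% of all genes.

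Between the doses, limma called 0 of 33 genes and 0% of all 13454 genes. At an unadjusted p under 0.05 this was 1 of 33 and 7.41% of all genes. The median log2 change, 160 over 40 mg/kg, was 0.05, and -0.01 without 160 mg/kg tumour 2 and vehicle tumour 3. With 1 tumour left out it ran from -0.01 (without 160 mg/kg tumour 2) to 0.12 (without 160 mg/kg tumour 8). All 33 intervals lay within a 2-fold change (86.3% of all genes). The gene with the unadjusted p was Incenp, named here after its values were seen, with signals of 1142, 1695 and 1966 at 160 mg/kg and 1887, 2065 and 3008 at 40 mg/kg. Its lowest signal was in 160 mg/kg tumour 2 and its highest in 40 mg/kg tumour 8, and its log2 change of -0.38 (interval -0.61 to -0.15) had an adjusted p of 0.644 in limma.

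The 33 genes were then described in single tumours. The median of the 33 genes was lowest in 160 mg/kg tumour 8, at -0.58 on the log2 scale relative to the vehicle mean, or 66.8% of it. In this tumour 30 of 33 genes were below all vehicle tumours, and for 25 genes it was the lowest tumour of its dose. Next came 40 mg/kg tumour 2 (-0.34, with 29 genes below all vehicle tumours) and 160 mg/kg tumour 7 (-0.32, with 25). At the other end, 160 mg/kg tumour 2 stood at 0.21 with 20 of 33 genes above all vehicle tumours, and 160 mg/kg tumour 3 at 0.14 with 16 above. The vehicle tumours stood at -0.10, 0.13 and -0.09. In 160 mg/kg tumour 8 the role medians ran from -0.79 for the proliferation mark pair to -0.17 for Foxm1, all of them negative, and in 160 mg/kg tumour 2 all 10 were positive, from 0.06 to 0.62. Signs were mixed in other tumours, among them 160 mg/kg tumour 3, with 0.41 for centromere and kinetochore genes and -0.15 for the passenger complex, and 40 mg/kg tumour 5, with role medians of -0.92 to 0.20. This is a description of the same arrays, and genes on an array share its scaling.

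**Figure D3:**
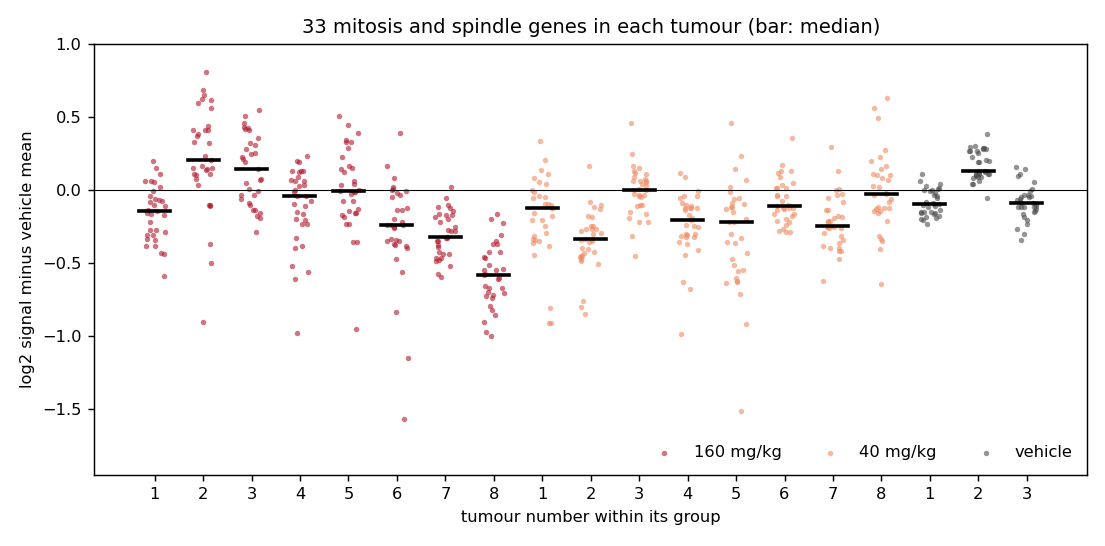
Log2 signal minus the vehicle mean (vertical axis) of each of the 33 genes in each tumour, with a bar for the median. At 160 mg/kg the medians run from -0.58 in tumour 8 to 0.21 in tumour 2, at 40 mg/kg from -0.34 to 0.00, and in vehicle tumours from -0.10 to 0.13.

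The spread within a dose was therefore compared, a choice made after these values were seen, with no test. The median SD of log2 signal over the 33 genes was 0.319 at 160 mg/kg and 0.174 at 40 mg/kg (n = 8 each), and 0.179 in vehicle tumours (n = 3). The SD was larger at 160 mg/kg for 30 of 33 genes (90.9%), against 67.9% of all genes, whose median SDs were 0.329 at 160 mg/kg and 0.266 at 40 mg/kg. The exceptions were Aurkb, Cenpf and Nusap1. Kif20a, for example, had an SD of 0.363 at 160 mg/kg and 0.119 at 40 mg/kg, and Birc5 0.390 and 0.142. Without tumour 8 the median at 160 mg/kg was 0.282, with 29 of 33 genes above their SD at 40 mg/kg, and without tumour 2 it was 0.297, also with 29. Without tumours 2, 3 and 8 together it was 0.212, with 21 of 33 genes above, against 56.9% of all genes.

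**Figure D4:**
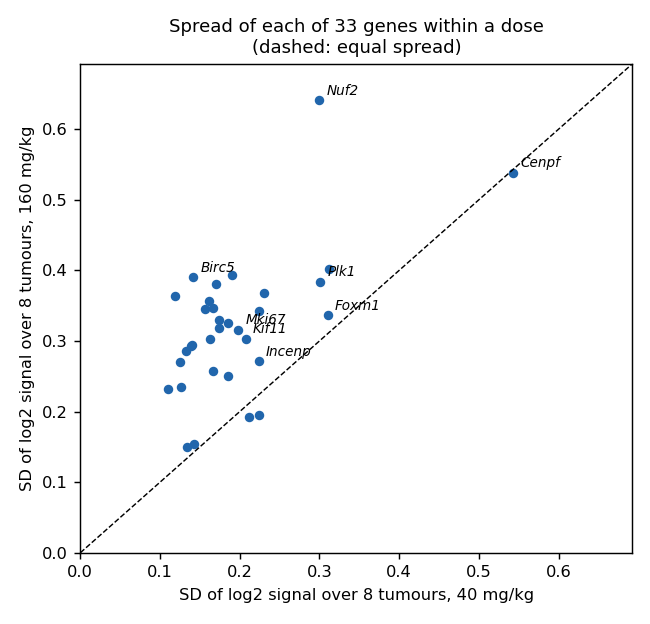
SD of log2 signal over the 8 tumours at 160 mg/kg (vertical axis) against that over the 8 tumours at 40 mg/kg (horizontal axis) for each of the 33 genes. Of these, 30 lie above the dashed line of equal spread.

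Related lists gave a backdrop. None of 47 measured DNA replication genes was called in resistant tumours, yet 46 were negative, with a median log2 change of -0.28, and 17 were lower at an unadjusted p under 0.05. Of 72 other mitotic genes, 58 were negative with a median of -0.18, and 2 fell. Of all 13454 genes tested, 57.5% were negative and 2.45% fell. At an unadjusted p under 0.05, 1762 of them were lower, and 23.3% passed in either direction. Sgo1, which protects sister chromatid cohesion, averaged 335 ± 52.1 at 160 mg/kg, 353 ± 45.8 at 40 mg/kg (SD, n = 8 each) and 506 ± 21.3 in vehicle tumours (SD, n = 3), with all 16 treated tumours below (log2 change -0.57, SE 0.13, adjusted p = 0.0177 in limma). Cdca5, which holds sister chromatids together as sororin, averaged 501 ± 97.7, 585 ± 70.7 and 763 ± 15.6 in the same order, also with all 16 below (log2 change -0.51, SE 0.13, adjusted p = 0.034 in limma). Zwint, a kinetochore protein, rose at 160 mg/kg against vehicle (log2 change 0.55, SE 0.15, adjusted p = 0.0418 in limma), while at 40 mg/kg its log2 change was 0.31 (adjusted p = 0.25), and the doses were not called different.

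Of 35 genes of G1 to S control and the DREAM complex, 4 fell in resistant tumours, against 2.45% of all genes, and the same 4 fell at 160 mg/kg, where 4.89% of all genes were called in either direction. Rbl1, the p107 pocket protein, averaged 281 ± 44.2 at 160 mg/kg, 315 ± 51.7 at 40 mg/kg (SD, n = 8 each) and 443 ± 23.4 in vehicle tumours (SD, n = 3), with a log2 change of -0.58 (SE 0.14, adjusted p = 0.0187 in limma). Mybl2, the B-Myb factor that joins MuvB at late cell cycle promoters, averaged 99.6 ± 20.6, 106 ± 19.6 and 160 ± 17.4 in the same order (log2 change -0.65, adjusted p = 0.03). The repressor E2f5 (log2 change -0.54, adjusted p = 0.0299) and Skp2, which marks cell cycle inhibitors for destruction (-0.42, adjusted p = 0.0356), also fell. At 40 mg/kg, 0 genes of the 3 lists were called by limma, while 21 other mitotic, 15 replication and 14 G1 to S genes had an unadjusted p under 0.05 (2.55% of all genes were called at this dose and 21% had such a p). For all 6 genes of the lists that fell in resistant tumours, Sgo1 and Cdca5 included, the call ended with array medians subtracted, without the 2 arrays least correlated with the others and without any of the 3 vehicle tumours (adjusted p = 0.0645 for Rbl1 without tumour 1 to 0.257 for E2f5 without tumour 3). Of 12 other settings, E2f5 and Mybl2 were called in 10, Sgo1, Rbl1 and Skp2 in 8, and Cdca5 in 7. The replicate block ended the calls of Sgo1, Cdca5 and Rbl1, the mean of all probe sets those of Sgo1, Cdca5, Rbl1 and Skp2, and a fit with no variance trend those of Cdca5 and Skp2. Skp2 was called in 14 of 19 fits that left out 1 tumour. At 160 mg/kg the calls held in 5 of 19 such fits for Skp2, 11 for Zwint and 13 for Mybl2, and in 5, 6 and 8 of the 12 other settings for the same genes.

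The lists were also set beside the mitosis and spindle genes in single tumours. In 160 mg/kg tumour 8 the median of the replication genes was -0.65 and that of the other mitotic genes -0.60. In 160 mg/kg tumour 2, where the mitosis and spindle median was 0.21, that of the replication genes was -0.14, that of the G1 to S genes -0.38 and that of the other mitotic genes 0.06. In 160 mg/kg tumour 3 these medians were 0.14, -0.07, -0.17 and 0.08, so in both tumours the signs differed between lists. Tumour 8 at 160 mg/kg had the highest summed postmitotic neuron signal (14698) and the lowest summed fibroblast signal (1982) of all 19. The next highest neuron sums were in 40 mg/kg tumour 2 (14186), 40 mg/kg tumour 5 (13060) and 160 mg/kg tumour 7 (12829), and the mitosis and spindle medians there were -0.34, -0.22 and -0.32. The lowest neuron sums of treated tumours were in 40 mg/kg tumour 4 (6421), 160 mg/kg tumour 5 (7065) and 40 mg/kg tumour 8 (7187). Mitosis and spindle medians in these were -0.21, -0.0035 and -0.02. In 160 mg/kg tumour 2, with its Atoh1 signal of 22.5, the neuron sum was 10354 and the mitosis and spindle median was the highest of all tumours. Its neuron median, 1.32, was above that of 40 mg/kg tumour 5 (1.18), so sums and medians rank these tumours differently. The part of neuron content in the mitotic signal was not tested.

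**Figure D5:**
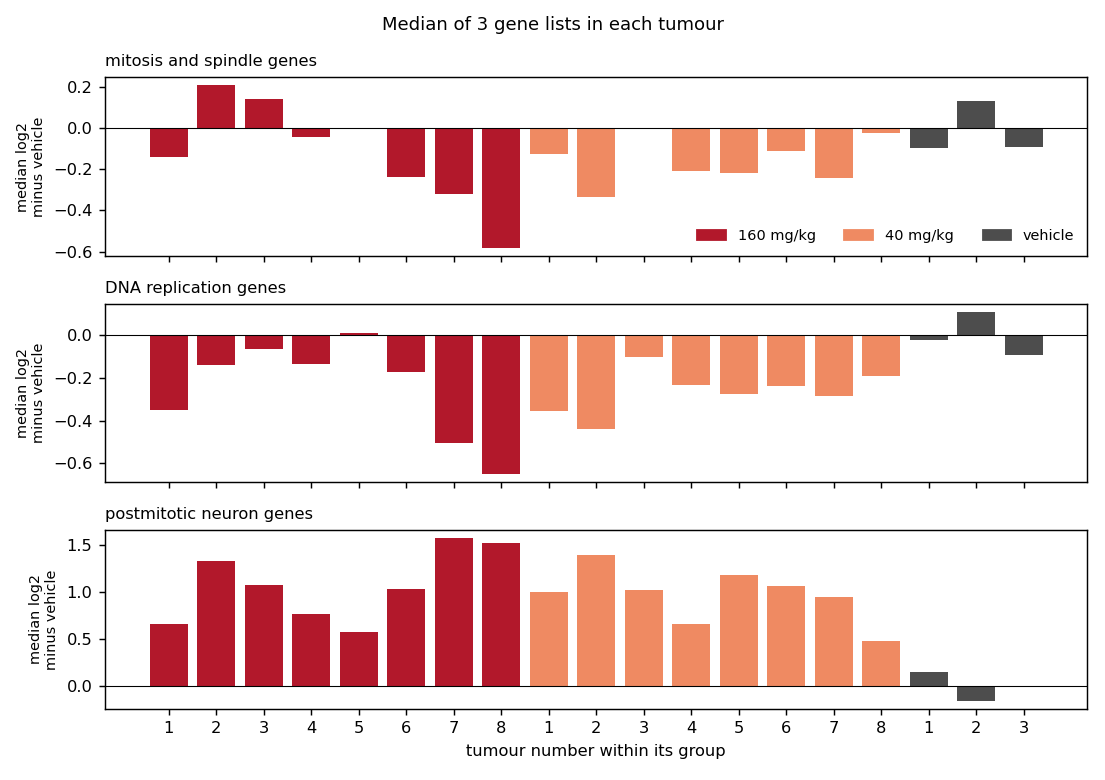
Median log2 signal minus the vehicle mean (vertical axes, each with its own scale) of the mitosis and spindle, DNA replication and postmitotic neuron genes in each tumour. In 160 mg/kg tumour 8 the first 2 are lowest, at -0.58 and -0.65, and the neuron median is 1.51.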

How the data were processed

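The authors deposited linear MAS5 signal intensities, per the submitters' processing notes. Their scaling target was not stated in the sources used here. With 2% trimmed from either end, each array averaged 150. Array medians ran from 32.7 to 49.7. The table lists probe sets of the full-genome Mouse 430 2.0 array, while the series text names the 430A 2.0 array. No scan date or batch was used here.

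After 64 controls were left out, 45037 probe sets remained: 34945 with 1 symbol, 932 with several and 9160 with none. Only those with 1 symbol were used, so 1 probe set naming Foxm1 with other genes was not. Of the 71 probe sets of the mitosis and spindle genes, 65 passed the filter, above the 40th percentile of the array on at least 3 arrays, and 6 did not, of Top2a, Foxm1, Aurka, Incenp, Cenpa and Kif23. The filter kept 31143 probe sets and 13454 genes. Log2 of the signal plus 2.5, the 10th percentile, was fitted with limma 3.58.1 in R 4.3.3 (lmFit, eBayes with a variance trend, 3 group means, 16 residual degrees of freedom). Fold changes on this scale understate those of dim genes. P-values are two-sided and Benjamini-Hochberg adjusted over all kept probe sets. A gene stands for its kept probe set with the highest mean. The fit was tested on simulated data with independent noise and planted changes larger than those reported for the mitosis and spindle genes. That test does not cover changes of the size reported for them.

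The genes and lists were chosen with earlier results of these data known. Values of each group were given for genes called by any probe set and for the gene with the smallest p in each of 10 roles, and from the other lists for genes called, at most 6 per list and comparison. The number of arrays, with 3 vehicle tumours, limits the precision. Alternatives were other scalings, pseudocounts, filters, variance models, weights, group sets, a replicate block, probe set means and leaving out arrays.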

Additional observations from a re-analysis of the deposited data

Results flagged for a closer look

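In 6 of 38 groups of 8 tumours examined, the highest or lowest signal lay far from the nearest other on the log2 scale. The measure was Dixon's ratio of gap to range at its 95% critical value, taken on the log2 values used in the fit. The signals printed below are linear, and ratios taken from them differ. Chance gives about 1 in 20 for independent groups. The groups examined share the same tumours, and their genes were picked by call or smallest p. That rate therefore cannot be set against 6 of 38. At 160 mg/kg, tumour 8 was lowest for Ect2 (850.9, next 1130.9) and for the dimmer Aurkb probe set (190.7, next 264.7), and tumour 2 was lowest for E2f5 (220, next 286.9). At 40 mg/kg, tumour 5 was lowest for Foxm1 (112.2, next 161.3) and highest for Zwint (1400.6, next 1065.5), and tumour 1 was lowest for Plk1 (231.3, next 327.7).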

How the results depend on the processing

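The median log2 change of the mitosis and spindle genes kept its sign against vehicle under all alternatives run, at -0.20 to -0.05 for resistant tumours, -0.22 to -0.06 at 40 mg/kg and -0.20 to -0.03 at 160 mg/kg, with leave-one-out ranges of -0.19 to -0.09, -0.24 to -0.08 and -0.19 to -0.03. Between doses it ran from -0.01 to 0.11, and -0.01 to 0.12 in the leave-one-out fits. The number of genes called for resistant tumours was 0 with array medians subtracted, without the filter, without the variance trend, with the mean of all probe sets and without the 2 arrays least correlated with the others (an alternative chosen after seeing the data), and 3 with array weights (Kif11, Bub1b and Aurkb). Array weights called 8907 of all 31143 probe sets in this comparison, against 1392 in the main fit. With the replicate number as a block the number of genes called was also 0, with Kif11 at -0.46 (adjusted p = 0.127 in limma). Deviations of same-numbered tumours had correlations of -0.13 to 0.09 in 14 pairs. The labels do not state what the numbers mark, and such correlations cannot show whether they mark a shared animal or day. At 40 mg/kg the number of genes called was 2 with array weights (7452 of all 31143 probe sets called) and 1 with the compared groups alone (1553 of 31143). At 160 mg/kg it was 2 with quantile normalization (1578 of 31143 probe sets called) and 3 with array weights (6145 of 31143). With the 60th percentile filter it was 1 at this dose (1420 of 20599). Leaving out an array gave 0 to 1 for resistant tumours and 0 to 1 at 160 mg/kg. The cause of these moves was not tested. Uncalled changes near 0 turned sign. Between doses these were Mki67 (-0.017 with quantile normalization, -0.0205 with array weights), Bub1b (0.0562 with medians subtracted, 0.0385 with probe set means), Kif11 (0.0098) and the dimmer Aurkb probe set (2e-04) with medians subtracted, the brighter Aurkb probe set (-0.0202 with probe set means, -0.0076 without the 2 arrays) and Plk1 (-0.0243 without the 2 arrays). Foxm1 turned at 160 mg/kg (0.0186 with medians subtracted, 0.1237 with the block) and for resistant tumours (0.0297 with the block). Leave-one-out ranges that crossed 0 were -0.2292 to 0.0202 for Foxm1 and -0.1918 to 0.0175 for Plk1 at 160 mg/kg, and between doses -0.0359 to 0.1143 for Mki67, -0.0411 to 0.1374 for Plk1, -0.0304 to 0.0598 for the brighter Aurkb probe set, -0.0377 to 0.0297 for Bub1b, -0.103 to 0.015 for Kif11 and -0.1066 to 0.0173 for the dimmer Aurkb probe set. The depth of an array is its signal over background: no detection calls were used here, so dim probe sets carry an unknown share of background.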
